A study of Mus musculus with 54 samples.

Results

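The 6 genes Akr1c18, Hsd17b7, Prlr, Sfrp4, Parm1 and Abcb1b, all named in connection with the corpus luteum, were followed through 27 mouse ovary libraries, with 27 testis libraries as a contrast. They were chosen by name, as the entries of the count table that carry these symbols, and they are 6 of its 26264 entries. Each symbol matched 1 entry in each tissue. Pregnant mice and their first-generation offspring (F1) drank water with a mixture of ibuprofen (IBU), its metabolite 2hIBU, diclofenac (DCF) and EE2, a synthetic oestrogen, from 8.5 days after mating. Dose 1 held 11.3, 90, 22.5 and 2.25 ng/L of these in that order, dose 2 held 113, 225, 112 and 45 ng/L, and control water held 0.001% ethanol. Exposure is described as lasting until females were 8 and males 10 weeks old, and no age is given for F2 by itself. The F1 groups were control, dose 1 and dose 2. The second generation (F2) is labelled untreated and came from control parents, a dose 1 mother, a dose 2 mother, a dose 1 father, a dose 2 father, or parents both of dose 2. In the crosses with 1 exposed parent the other parent was a control. Each of these 9 groups had 3 libraries per tissue, lettered A, B and C. Cross labels were read as naming the male first. Whether the libraries of a group came from different litters is not stated, and p-values therefore describe the spread among these libraries alone. The labels give no strain and no stage of the oestrous cycle.

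The corpus luteum is the gland that forms from a follicle after ovulation, when granulosa and theca cells luteinise, and it secretes progesterone. In the mouse it is rebuilt at each cycle and then regresses. Prolactin acting through the prolactin receptor (Prlr) sustains it, and prostaglandin F2alpha acting through the receptor Ptgfr ends its function. During regression the enzyme 20alpha-hydroxysteroid dehydrogenase, encoded by Akr1c18, turns progesterone into a weakly active product. Hsd17b7, first known as a prolactin-receptor-associated protein, converts oestrone to oestradiol and also acts in cholesterol synthesis. Sfrp4 is a secreted WNT-binding protein, Parm1 a mucin-like membrane protein, and Abcb1b a drug efflux transporter of the P-glycoprotein type.

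Whole-library values were checked first. Ovary libraries held 35.642 to 101.818 M counts (median 43.774 M), and testis libraries 31.835 to 46.432 M. The deepest ovary libraries were F1 dose 1 A and F1 dose 2 C. All 8 oocyte markers were detected, and their summed level was 235.5 to 575.5 CPM (counts-per-million units, scaled with TMM factors) in ovary libraries and 3.51 to 7.89 CPM in testis libraries. Summed markers of oviduct epithelium were 32.84 to 72.66 CPM in 24 ovary libraries, but 245.3 CPM in F1 control A, 1303 CPM in F1 dose 2 A and 527.9 CPM in F1 dose 2 B. Summed markers of ovulating follicles and cumulus cells were 377.2 CPM in F1 control C, 354.5 CPM in F1 dose 1 C and 522.7 CPM in F2 control parents C, against 69.72 to 167.1 CPM elsewhere. In whole ovary, fewer luteal cells and less RNA per luteal cell cannot be told apart.

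Per kilobase of exon, Sfrp4 had the highest median level over the 27 ovary libraries at 302.8 CPM per kb, followed by Akr1c18 at 170.0, Hsd17b7 at 73.22, Prlr at 33.32, Abcb1b at 25.82 and Parm1 at 4.95 CPM per kb. Lengths were the union of all annotated exons of a gene, from 1207 bases for Akr1c18 to 15339 for Prlr, which can exceed the length of a transcript. They came from an annotation of an older build, GRCm38, so these levels per length and their order are approximate. Without division by length the medians were 1266 CPM for Sfrp4, 511.1 for Prlr, 373.7 for Hsd17b7, 206.3 for Abcb1b, 205.2 for Akr1c18 and 25.09 for Parm1. The genes differed widely in how much they varied among libraries of the same group. On the log2 scale the pooled SD within groups was 2.05 for Akr1c18, above that of 99.92% of the 17754 genes tested. It was 1.29 for Hsd17b7 (98.46%), 1.00 for Abcb1b (96.46%), 0.92 for Sfrp4 (95.31%), 0.55 for Parm1 (82.32%) and 0.45 for Prlr (75.54%), while the median gene had 0.25. When the 9 groups were ordered by median, 2 of 48 pairs of neighbouring groups (8 pairs per gene) did not overlap, 1 for Prlr and 1 for Parm1. The share over all genes was not computed for this ordering, so the count cannot be read as a trait of the members.

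**Figure D1:**
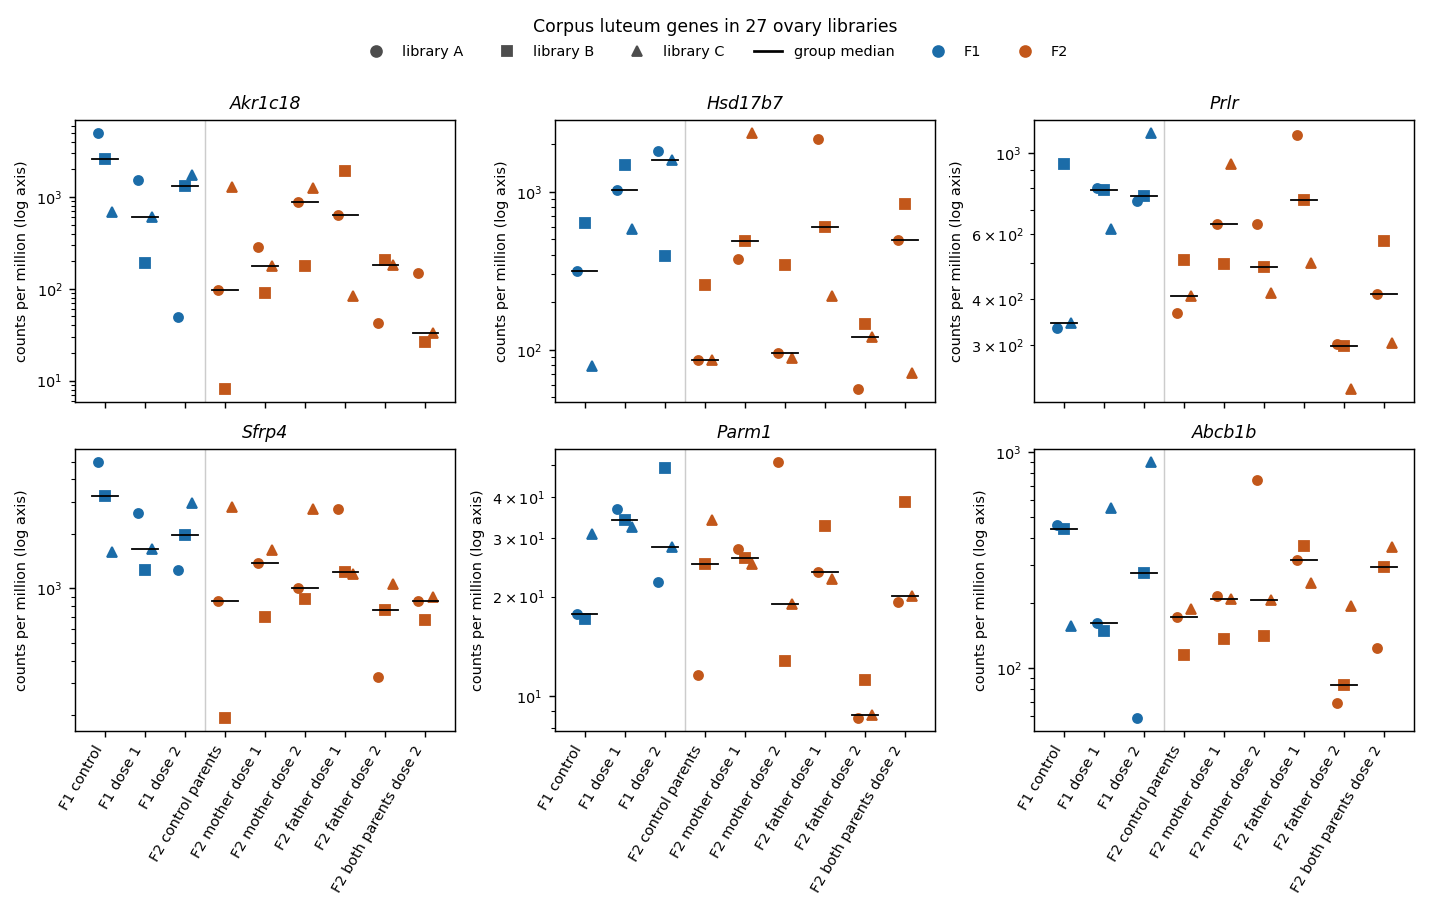
Levels of the 6 genes in each ovary library, in CPM on log axes, by group; symbols mark the libraries A, B and C, black lines the group medians, blue F1 and orange F2. Akr1c18 spans 8.11 to 5018 CPM with libraries of 1 group far apart, and Parm1 is low in all 3 libraries of the dose 2 father group.

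Akr1c18, the progesterone-inactivating enzyme, was the most variable of the 6. Its levels in libraries A, B and C were 5018, 2577 and 695.5 CPM in F1 control, 1553, 190.7 and 612.5 CPM in F1 dose 1, and 49.45, 1332 and 1732 CPM in F1 dose 2. F1 control held the highest library of all, and a dose 2 library was lower than every other F1 library. In F2, control parents had 97.83, 8.11 and 1298 CPM, which is a 160.1-fold range among 3 control libraries. With an exposed mother the levels were 288.1, 90.43 and 178.7 CPM at dose 1 and 890.7, 177.5 and 1249 CPM at dose 2. With an exposed father they were 637.6, 1920 and 83.46 CPM at dose 1 and 42.69, 205.2 and 182.0 CPM at dose 2. With both parents at dose 2 they were 150.6, 26.46 and 33.04 CPM. Every F2 group overlapped the range of the F2 control libraries. By group median, both parents at dose 2 stood lowest (33.04 CPM) and F1 control highest (2577 CPM).

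Hsd17b7, which makes oestradiol from oestrone, followed another order. Its levels were 313.2, 636.5 and 79.2 CPM in F1 control, 1026, 1487 and 579.3 CPM in dose 1 and 1826, 394.6 and 1587 CPM in dose 2. Control A and C lay below all exposed F1 libraries, while control B overlapped both doses. In F2 the control parents had 86.77, 255.8 and 86.38 CPM. A dose 1 mother gave 373.7, 487.6 and 2362 CPM and a dose 1 father 2145, 599.1 and 220.4 CPM. Those groups held the 2 highest F2 libraries, and the mother group did not overlap control parents. The dose 2 crosses had 94.97, 345.1 and 89.06 CPM for the mother, 56.54, 145.4 and 121.0 CPM for the father and 494.1, 833.8 and 71.67 CPM for both parents. All of these overlapped control parents.

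Prlr, the receptor for the luteotrophic hormone prolactin, varied less. F1 control had 332.7, 933.3 and 344.3 CPM, dose 1 had 799.5, 791.2 and 618.5 CPM and dose 2 had 740.9, 762.9 and 1133 CPM. Control A and C lay below all exposed F1 libraries and control B above all but 1 of them. In F2, control parents had 365.7, 511.1 and 407.3 CPM, a dose 1 mother 640.5, 498.5 and 931.2 CPM and a dose 1 father 1118, 745.4 and 499.7 CPM. The dose 2 crosses had 639.7, 487.4 and 414.1 CPM with the mother exposed, 301.9, 297.5 and 227.3 CPM with the father and 411.4, 574.5 and 302.5 CPM with both. The 3 dose 2 father libraries lay below all control-parent libraries.

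Sfrp4, the WNT-binding protein, ran from 193.5 CPM in control parents B to 5010 CPM in F1 control A. F1 control had 5010, 3250 and 1588 CPM and F2 control parents 849.6, 193.5 and 2822 CPM, so that the generations' controls overlapped. Both parents at dose 2 formed the tightest group, with 853.9, 670.5 and 901.4 CPM. Abcb1b, the efflux transporter, ran from 58.91 CPM in F1 dose 2 A to 902.6 CPM in F1 dose 2 C, 2 libraries of the same group. F2 control parents had 173.0, 115.4 and 188.2 CPM of Abcb1b, and a dose 1 father gave 317.3, 366.8 and 246.7 CPM, which did not overlap them. Parm1, the mucin-like protein, was at 8.61 to 51.22 CPM. Its levels were 17.7, 17.15 and 30.99 CPM in F1 control and 36.75, 34.09 and 32.53 CPM in F1 dose 1, with no overlap. In F2 it was at 11.61, 25.18 and 34.12 CPM with control parents and at 8.61, 11.22 and 8.80 CPM with a dose 2 father, again with no overlap.

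The windows from 250 bases before to 50 bases after the start of transcription are shown for 3 members whose levels are compared pairwise below: the 2 with the widest range and Prlr. They come from the RefSeq promoter table of build GRCm38.p6, which holds windows for 5 of the 6 members, and each is written along the gene's strand. Capitals mark matches to any of 7 motifs searched on both strands. One is AAGGTCA, the kind of site that NR5A receptors bind. Another is TTCNNNGAA, the form bound by STAT factors. The cyclic AMP response element was searched as TGACGTCA and also by its shorter core TGACG, which lies within it. The AP-1 site was searched as TGANTCA and the GATA site as AGATAA. The last motif, TGACCT, is the core that many nuclear receptors bind, and its reverse complement lies within AAGGTCA.
Akr1c18, chr13:4150597-4150896, minus strand: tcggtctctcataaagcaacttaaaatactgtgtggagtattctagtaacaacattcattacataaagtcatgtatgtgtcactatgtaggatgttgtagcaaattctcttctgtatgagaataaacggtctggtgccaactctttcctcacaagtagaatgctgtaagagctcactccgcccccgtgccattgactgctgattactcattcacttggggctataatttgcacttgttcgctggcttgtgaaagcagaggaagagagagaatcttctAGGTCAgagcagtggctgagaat
Hsd17b7, chr1:169969156-169969455, minus strand: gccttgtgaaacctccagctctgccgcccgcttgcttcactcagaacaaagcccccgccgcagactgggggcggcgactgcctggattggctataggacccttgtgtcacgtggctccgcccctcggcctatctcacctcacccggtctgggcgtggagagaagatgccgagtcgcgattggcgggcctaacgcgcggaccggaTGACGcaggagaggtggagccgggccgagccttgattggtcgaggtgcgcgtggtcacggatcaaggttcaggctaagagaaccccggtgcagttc
Prlr, the second of its 3 windows, chr15:10223656-10223955, plus strand: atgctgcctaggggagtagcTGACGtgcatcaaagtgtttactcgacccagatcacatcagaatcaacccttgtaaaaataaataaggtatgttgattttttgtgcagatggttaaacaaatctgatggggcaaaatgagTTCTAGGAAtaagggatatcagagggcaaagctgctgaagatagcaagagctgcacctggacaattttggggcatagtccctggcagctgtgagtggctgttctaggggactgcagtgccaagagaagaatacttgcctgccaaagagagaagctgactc
The Akr1c18 window held 1 match, to the reverse complement of TGACCT, a motif present in 16.3% of all 32851 windows of this length. Hsd17b7 held 1 match to TGACG, a motif of 20.8% of windows. The Prlr window shown held TGACG as well, and TTCNNNGAA, which 8.3% of windows have. Another Prlr window, chr15:10293401-10293700, held TGANTCA (7.81% of windows). Matches to AAGGTCA (4.72% of windows), TGACGTCA (1.79%) or AGATAA (11.2%) were absent from the members' 7 windows. The Parm1 and Abcb1b windows held no match to any of the 7. A match describes letters in a window and not a bound site.

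In F1 ovary, dose 1 and dose 2 were each compared with control, and none of the 6 genes passed the test at either dose. Tests were made with the quasi-likelihood method of edgeR, and p-values were adjusted over all genes (Benjamini-Hochberg) with a threshold of 0.05. At dose 1, 0 of 17168 genes passed (0.0%; 904 at an unadjusted p under 0.05, and 72 by DESeq2). Hsd17b7 was at a log2 fold change of 1.59 ± 0.76 (SE; 3.0-fold higher, adjusted p = 0.726) and Parm1 at 0.65 ± 0.32 (1.56-fold higher, adjusted p = 0.726). Akr1c18 was at -1.82 ± 1.17 and Sfrp4 at -0.84 ± 0.46, both with an adjusted p of 0.726. Groups did not overlap for 1 of the 6 genes, Parm1, against 11.3% of all genes. Compared letter by letter, Hsd17b7 and Parm1 were higher and Akr1c18 lower at dose 1 in all 3 letters, and 35.4% of all genes kept 1 direction in this way. With the letter as a block the adjusted p of all 3 was 0.729 (edgeR). At dose 2, 0 genes passed (0.0%; 2053 at an unadjusted p under 0.05, and 345 by DESeq2), with no member among the DESeq2 calls. Hsd17b7 was at 1.89 ± 0.77 (3.70-fold higher, adjusted p = 0.411), Prlr at 0.71 ± 0.39 and Akr1c18 at -1.41 ± 1.16. Without F1 dose 2 A, the library with the most oviduct marker RNA, the Hsd17b7 value was 1.53, and without dose 2 B it was 2.32. Leaving out a control library moved it to 2.69 (control B) or 1.41 (control C), and the dose 1 value to 2.39 or 1.12 in the same order. None of the 6 genes had groups without overlap at dose 2, against 20.7% of all genes. The median over the 6 genes was 0.08 at dose 1 and 0.41 at dose 2, on the log2 scale, where the median of all genes was 0.00 and 0.02.

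The doses themselves were also set against each other in F1 ovary. Dose 2 minus dose 1 ran from -0.05 (Parm1) to 0.52 (Abcb1b) over the 6 genes, on the log2 scale, and each had an adjusted p of 1.0. Over all genes 0 passed (0.0%; 809 at an unadjusted p under 0.05, and 342 by DESeq2). Groups overlapped for all 6 genes, against 10.5% of all genes without overlap.

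In F2 ovary the 5 crosses with an exposed parent were each compared with control parents, which all 5 comparisons share. No member passed in any of them. For a dose 1 mother, Hsd17b7 was at 2.92 ± 1.04 (7.54-fold higher, adjusted p = 0.4) and Prlr at 0.69 ± 0.30 (1.61-fold higher, adjusted p = 0.508). Without mother dose 1 C, the highest Hsd17b7 library of the study, the Hsd17b7 value was 1.59, and without control parents B it was 3.63. Over all genes 0 passed (0.0%; 1606 at an unadjusted p under 0.05, and 122 by DESeq2), and Hsd17b7 was the 1 member without overlap, against 14.0% of genes. For a dose 1 father, Hsd17b7 was at 2.80 ± 1.03 (6.96-fold higher, adjusted p = 0.419) and Prlr at 0.89 ± 0.30 (1.85-fold higher, adjusted p = 0.4). Without father dose 1 A these were 1.51 and 0.53, and Hsd17b7 was at 3.52 without control parents B. Again 0 genes passed (0.0%; 1681 at an unadjusted p under 0.05, and 82 by DESeq2). Abcb1b, at 0.97 ± 0.56, was the 1 member without overlap, against 15.1% of genes.

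The dose 2 crosses gave other values for the same genes. For a dose 2 mother, Abcb1b was 2.28-fold higher (SE 0.56 on the log2 scale, adjusted p = 0.855), and its log2 fold change was 0.13 without mother dose 2 A. There 0 genes passed (0.0%; 1017 at an unadjusted p under 0.05, and 13 by DESeq2), and all 6 members overlapped, against 10.4% of genes without overlap. All 6 members had positive values with a dose 2 mother (median 0.28) and with a dose 1 father (median 0.90). The members vary together in part and these comparisons share control parents, so their signs are not independent. With a dose 2 father, all 6 members had negative values, from -0.42 (Hsd17b7) to -1.72 (Akr1c18). Their median was -0.75 against -0.01 over all genes. In this group the summed oocyte markers were 530.9, 523.5 and 575.5 CPM, above all other 24 ovary libraries (highest 467.4 CPM), and all 8 of these markers had positive values against control parents, none of them called. The summed steroidogenic markers of the Leydig list were 5907, 7833 and 6024 CPM, below the 8005 to 8947 CPM of control parents. That list was made for testis and shares Star, Cyp11a1 and Lhcgr with the luteal list used below. Summed theca and interstitial markers (3641, 2596 and 2190 CPM) overlapped control parents (3880, 3843 and 2568 CPM). So did granulosa markers, at 4984, 4764 and 4135 CPM against 5760, 5212 and 4542 CPM. The part of other cell types in these values was not tested. Parm1 was at -1.31 ± 0.46 (2.48-fold lower, adjusted p = 0.219) and Prlr at -0.64 ± 0.30 (1.56-fold lower, adjusted p = 0.316). These were the 2 members without overlap, against 20.8% of genes, while 1 gene in all passed the test (0.00573%; 351 by DESeq2, no member among them). With both parents at dose 2, Akr1c18 was at -2.74 ± 1.43 (6.69-fold lower, adjusted p = 0.254), a value that turned to 0.40 without control parents C and was -3.98 without library A of the cross. Hsd17b7 was at 1.71 ± 0.99 (adjusted p = 0.309) and Prlr at 0.01 ± 0.30. All 6 members overlapped there, although 26.3% of genes did not, and 120 genes passed (0.688%).

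**Figure D2:**
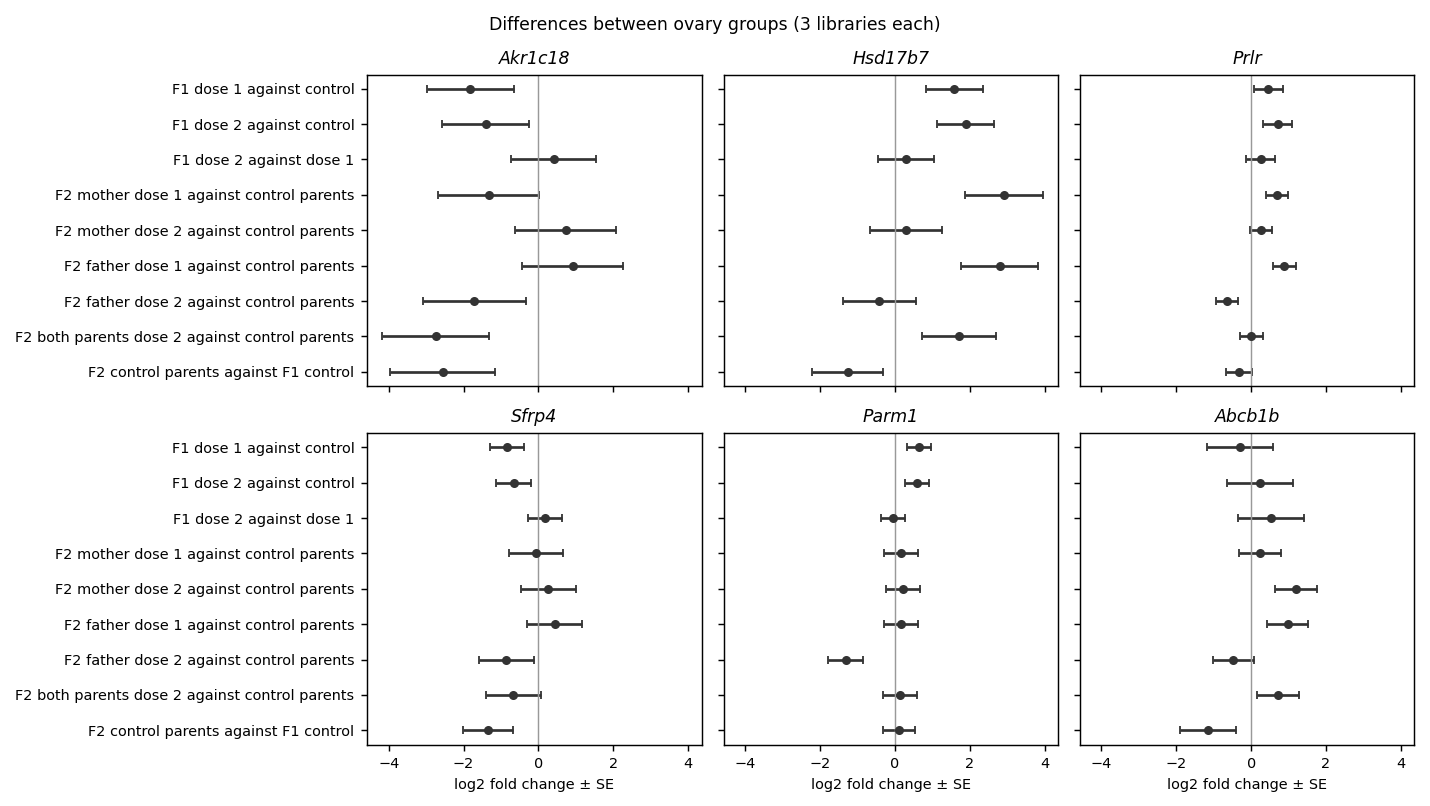
Log2 fold change (points) and its SE (bars) of each gene in 9 comparisons of ovary groups with 3 libraries each; the vertical line marks no difference. Bars are widest for Akr1c18, and narrowest for Parm1 within F1 and for Prlr elsewhere, and no point passed the test after adjustment.

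The controls of the generations were compared as well. By label the F1 controls drank water with ethanol and the F2 animals were untreated, so generation and vehicle cannot be told apart. F2 control parents minus F1 control was -2.56 ± 1.40 for Akr1c18 (5.91-fold lower, adjusted p = 0.406) and -1.35 ± 0.68 for Sfrp4 (2.55-fold lower, adjusted p = 0.375). Without control parents C these were -5.68 and -2.63, and without F1 control A they were -1.81 and -0.91. Sfrp4 was at -0.84 without control parents B. Summed granulosa markers were 2902 to 4034 CPM in F1 control and 4542 to 5760 CPM in control parents, with no overlap, and their part was not tested. Of the 6 members 5 had negative values, and all 6 overlapped, against 11.8% of genes without overlap. Over all genes 0 passed (0.0%; 2479 at an unadjusted p under 0.05, and 119 by DESeq2). The dose 2 effect with both parents exposed, minus the dose 2 effect in F1, was called for 1275 of 17754 genes (7.18%) but for none of the 6. The smallest adjusted p among them was 0.337, for Prlr at -0.71 ± 0.50. Without F1 control B, the highest Prlr library of the F1 controls, Prlr passed at -1.35, while 21.8% of all genes passed in that fit.

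Asked across all 9 ovary groups at once, none of the 6 genes passed, although 800 of 17754 genes did (4.51%). Adjusted p-values from edgeR were 0.0597 for Prlr, 0.0861 for Hsd17b7, 0.176 for Parm1, 0.177 for Akr1c18, 0.265 for Sfrp4 and 0.471 for Abcb1b. Prlr passed when any 1 of 5 libraries was left out: F1 control A (0.0243), F1 control B (0.00609), F1 control C (0.0425), father dose 1 C (0.0371) or both parents dose 2 B (0.0483). In these 5 fits 17.0, 8.37, 6.8, 5.36 and 4.92% of all genes passed, in the same order. DESeq2's likelihood-ratio test called 3325 genes and 4 members, Prlr (adjusted p = 6.36e-04), Hsd17b7 (0.00186), Akr1c18 (0.0021) and Parm1 (0.0315). It thus called far more genes than the 800 of edgeR, and its share of all genes was not computed. So the call for these 4 genes differed between the tools.

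All 15 pairs of the 6 genes had a positive r across the 27 ovary libraries, from 0.11 to 0.86. The signs were mixed with group means subtracted (-0.20 for Hsd17b7 with Parm1 up to 0.80). They were also mixed within F1 alone (-0.49 for Sfrp4 with Parm1 up to 0.89), while within F2 alone the lowest r was 0.045. Akr1c18 and Sfrp4 varied together across the 27 ovary libraries (Pearson's r = 0.86, Spearman's rho = 0.82), as did Hsd17b7 and Prlr (r = 0.82, rho = 0.82). Each had a permutation p of 1e-05, the smallest that 100000 two-sided resamples can give, and an adjusted p of 7.5e-05 over the 15 pairs. Akr1c18 and Hsd17b7 had r = 0.11 and rho = 0.17 (permutation p = 0.578), so high Akr1c18 occurred with high and with low Hsd17b7. F1 dose 2 C, for example, held 1732 CPM of Akr1c18 and 1587 CPM of Hsd17b7, and F2 control parents C held 1298 and 86.38 CPM. Low Akr1c18 with high Hsd17b7 was seen in F1 dose 2 A (49.45 and 1826 CPM), the library with the most oviduct marker RNA. It was also seen in F2 both parents dose 2 B (26.46 and 833.8 CPM) and in mother dose 1 C (178.7 and 2362 CPM). Oviduct markers summed to only 53.26 and 42.83 CPM in those libraries. With group means subtracted, r was 0.80 for Akr1c18 with Sfrp4, 0.70 for Hsd17b7 with Prlr and -0.06 for Akr1c18 with Hsd17b7. Without the 2 libraries farthest from the median of the first gene, r was 0.79, 0.79 and 0.12 in that order.

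Within F1 alone (9 libraries) r was 0.89 for Akr1c18 with Sfrp4 (exact permutation p = 0.00103) and 0.79 for Hsd17b7 with Prlr (exact permutation p = 0.0105, adjusted p = 0.0789). Within F2 alone (18 libraries) it was 0.80 and 0.795 (permutation p = 8e-05 and 0.00011). In all, 5 of the 15 pairs passed after adjustment. The other 3 were Prlr with Parm1 (r = 0.59, rho = 0.53, adjusted p = 0.0056), Akr1c18 with Abcb1b (r = 0.55, rho = 0.54, adjusted p = 0.011) and Sfrp4 with Abcb1b (r = 0.52, rho = 0.54, adjusted p = 0.0181). With group means subtracted, Prlr with Parm1 was at 0.17 and Sfrp4 with Abcb1b at 0.38, and neither passed. Without the 2 libraries farthest from the median of the first gene, r was 0.52 for Prlr with Parm1, 0.50 for Akr1c18 with Abcb1b and 0.46 for Sfrp4 with Abcb1b, and the last no longer passed (adjusted p = 0.0633).

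**Figure D3:**
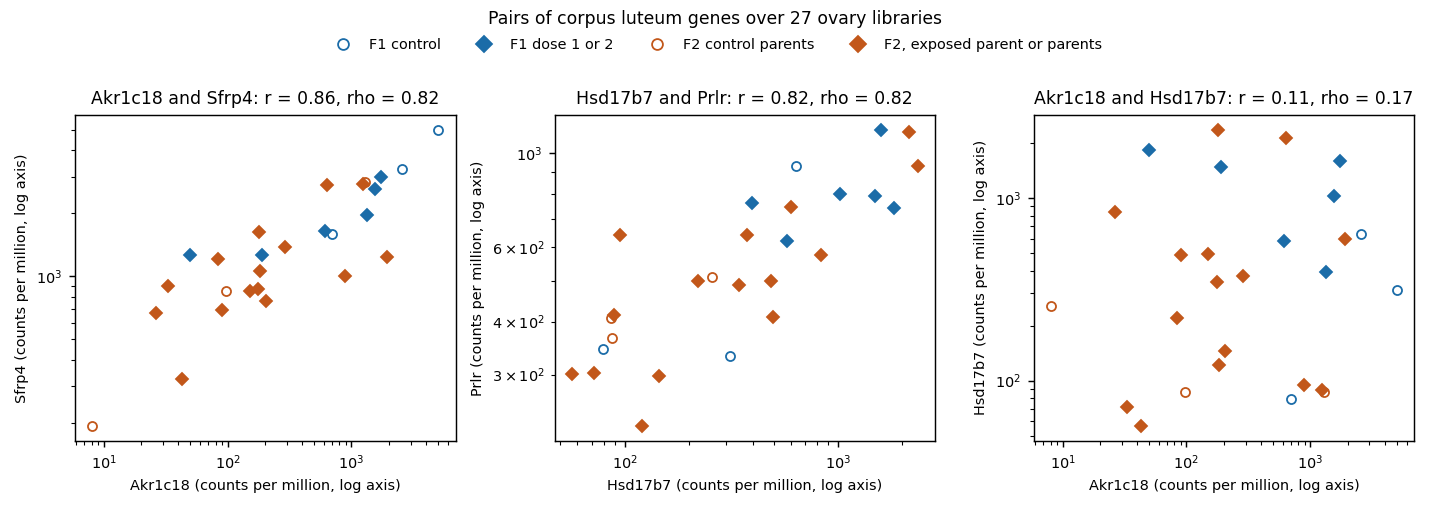
Each point is 1 of 27 ovary libraries, with the levels of 2 genes in CPM on log axes; open circles are controls, filled diamonds exposed groups or offspring of exposed parents, blue F1 and orange F2. Points follow a line for Akr1c18 with Sfrp4 (r = 0.86) and Hsd17b7 with Prlr (r = 0.82) and scatter for Akr1c18 with Hsd17b7 (r = 0.11).

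A list of 16 other luteal and steroidogenic genes was set against the same 6. Adjusted over the 96 correlations, 12 of the 16 were positively related to Hsd17b7 and 12 to Prlr, but 6 to Akr1c18, 6 to Sfrp4, 7 to Abcb1b and 8 to Parm1. Negative relations past the threshold numbered 1 for Abcb1b and 2 for each other member. Lhcgr, the LH receptor, followed Hsd17b7 (r = 0.75, group means subtracted 0.75) and Prlr (0.70) but not Akr1c18 (-0.13) or Sfrp4 (0.04). Hsd3b1, which makes progesterone, had r = 0.68 with Hsd17b7 and 0.00 with Akr1c18. Ptgfr, the prostaglandin F2alpha receptor, had its highest r with Sfrp4 (r = 0.83) and Akr1c18 (0.79). Star, Scarb1 and Fdx1, which bring in or process cholesterol for steroid synthesis, were positively related to all 6 members. Inha, an inhibin subunit of growing follicles, ran the other way, from -0.65 with Prlr to -0.36 with Abcb1b. Of all genes tested, r was at least 0.5 for 3.73% with Akr1c18, 6.93% with Hsd17b7, 13.5% with Prlr, 4.15% with Sfrp4, 5.28% with Parm1 and 2.68% with Abcb1b. Among the 16 listed genes this was 4, 10, 10, 5, 8 and 6.

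**Figure D4:**
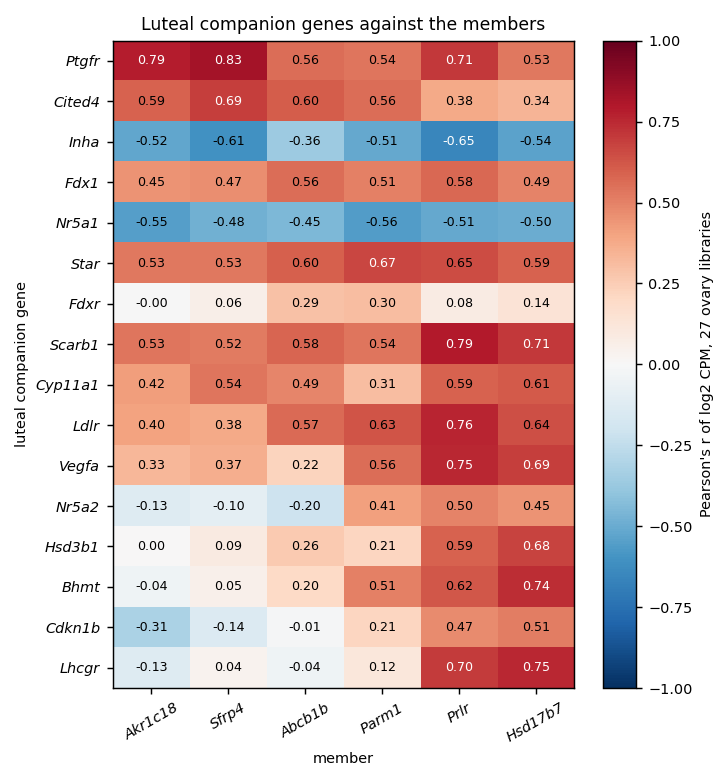
Pearson's r of log2 CPM over 27 ovary libraries between 16 luteal and steroidogenic genes (rows) and the 6 members (columns), printed in each cell; red is positive and blue negative. Rows are sorted by how much higher r was with Hsd17b7 than with Akr1c18, so Ptgfr is at the top and Lhcgr at the bottom.

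Hsd17b7 also acts in cholesterol synthesis, and 18 other genes of that pathway and its control were examined. Of these, 16 were positively related to Hsd17b7 after adjustment over 108 correlations, 14 to Prlr and 6 to Akr1c18. Lss, the lanosterol synthase, had r = 0.84 with Hsd17b7 (0.72 with group means subtracted), Nsdhl 0.81 and Sqle 0.78. Mvk, the mevalonate kinase, did not pass (r = 0.37). An r of at least 0.5 with Hsd17b7 was found for 15 of the 18, beside 6.93% of all genes. Across the 9 groups 1 of the 18 passed the test, the desaturase Sc5d (adjusted p = 0.00505), beside 4.51% of all genes. For a dose 1 father all 18 had positive values (median 0.97 on the log2 scale, 0.00 over all genes) and for a dose 1 mother 17 of 18 (median 0.62), with none called in either. These are the crosses that held the 2 highest F2 libraries of Hsd17b7, and the signs in the other comparisons are not given here. Most of the 18 genes vary with Hsd17b7, so they are not 18 separate observations.

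Of the prolactin pathway, 10 of 11 listed genes could be tested, and Prl itself had 0 counts in every ovary library. Stat5b, which carries the receptor's signal, had r = 0.84 with Prlr (adjusted p = 3e-04 over 60 correlations), and Cish, a target of that signal, had 0.69 (adjusted p = 0.00165). Jak2, the receptor's kinase, had 0.24 and Stat5a 0.34, and neither passed. Of the 10 genes, 2 had an r of at least 0.5 with Prlr, beside 13.5% of all genes. With Hsd17b7 this was also 2 of 10, beside 6.93% of all genes, so such relations were not particular to the receptor. Cish levels were 178.3, 110.0 and 71.45 CPM with a dose 1 father and 13.67, 42.18 and 22.84 CPM with a dose 2 father. Within F2 these groups had the highest and lowest Prlr medians (745.4 and 297.5 CPM). The Prlr medians of F1 dose 1 (791.2 CPM) and F1 dose 2 (762.9 CPM) were higher still, and Cish of the other groups is not listed here. Across the 9 groups Socs2, an inhibitor of cytokine signalling, was the 1 gene of the list that passed (adjusted p = 0.0109). It had 182.1 to 228.5 CPM in F1 libraries and 199.8 to 354.6 CPM in F2 libraries.

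Other lists were read against the same 4.51% of all genes in the 9-group test. Of the 16 luteal and steroidogenic genes 3 passed, the nuclear receptor Nr5a2 (adjusted p = 0.0489), the cell-cycle inhibitor Cdkn1b (0.0327) and the angiogenic factor Vegfa (0.0349). Nr5a2 was at 131.0, 247.6 and 256.5 CPM in F1 control and 596.3, 433.2 and 345.1 CPM in F1 dose 1. None of 15 genes of luteal regression passed, with Ptgfr nearest (adjusted p = 0.0702), and none of 17 WNT pathway genes, 7 ABC transporters, 5 AKR1C relatives or 7 HSD17B relatives did. Of 12 genes of progesterone and oestrogen metabolism the progesterone receptor Pgr passed (adjusted p = 0.0339). Pgr was at 23.0 CPM in F1 dose 2 A, the library with the most oviduct marker RNA, and at 1.23 to 4.55 CPM in the other 26. Whether oviduct tissue had a part in that value was not tested. Of 9 granulosa markers Nr5a2 and Fshr passed, and Fshr had r = -0.63 with Prlr. Of 8 oocyte markers 3 passed, Gdf9 (adjusted p = 0.0181), Zp3 (0.0226) and Ooep (0.0276). Of 8 oviduct markers 5 passed, among them Foxj1 and Dnah5 (adjusted p = 8.82e-05 each), which are markers of ciliated cells.

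Close relatives of the members had other ranges. Abcb1a, a close paralog of Abcb1b, was at 34.02 to 90.15 CPM, a narrower range than the 58.91 to 902.6 CPM of Abcb1b. Reads shared between these paralogs were not measured and may make both values uncertain. Akr1c14, a relative of Akr1c18, was at 158.9 to 362.0 CPM, and Akr1c13 reached 10.72 CPM. Hsd17b1, the oestradiol-making enzyme of granulosa cells, was at 133.3 to 287.3 CPM, a narrower range than the 56.54 to 2362 CPM of Hsd17b7. Sfrp1 was at 99.43 to 280.2 CPM and Sfrp2 at 1.91 to 34.77 CPM, beside 193.5 to 5010 CPM for Sfrp4.

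By a search of 13844 genes with a mean of at least 1 CPM, the genes most like each member over the 27 ovary libraries were named. They were chosen for their r, which therefore carries no test. For Akr1c18 they were Onecut2 (r = 0.93), S100a4 (0.92) and Lgmn (0.91), a lysosomal protease. For Hsd17b7 they were Aatk (0.96), Kcnj16 (0.94), a potassium channel, and Spns2 (0.93), a sphingosine-1-phosphate transporter. For Prlr they were Phkb (0.94), Itfg1 (0.94) and Abca2 (0.94). Sfrp4 was most like Cdkn2b (0.90), a cell-cycle inhibitor, and next like Akr1c18 itself (0.86). Parm1 was nearest to Cobll1 (0.85), Epb41l1 (0.84) and Lrrc59 (0.84), and Abcb1b to Acsl5 (0.84), Slc46a3 (0.81) and Cyp4f14 (0.81). With group means subtracted these 18 values lay between 0.73 and 0.92.

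Testis served as the contrast tissue, and all 6 genes were lower there than in ovary. In F1 controls all 6 were called (18168 of 20864 genes passed, 87.1%), as in the F2 controls (18102 genes, 86.8%). The F1 control log2 fold changes, ovary over testis, were 3.17 ± 0.31 for Prlr, 3.46 ± 0.45 for Parm1, 5.10 ± 0.83 for Hsd17b7 and 9.47 ± 0.89 for Abcb1b (adjusted p from 9.85e-13 to 4.75e-07 with edgeR). In F2 controls they were 2.45 ± 0.30, 2.88 ± 0.43, 3.42 ± 0.77 and 6.94 ± 0.79. Akr1c18 had 0 to 3 counts per testis library, 15 in all 27, and Sfrp4 had 0 to 4, 30 in all. In F1 controls each had 2 counts over the 3 testis libraries, so that the ratio of pooled levels was 172000 for Akr1c18 (exact 95% Poisson interval 47500 to 1420000) and 202000 for Sfrp4 (55900 to 1670000). In F2 controls the ratios were 17700 for Akr1c18 (6050 to 85800) and 37800 for Sfrp4 (14800 to 139000), from 3 and 4 testis counts. These intervals cover counting error only. The ratios are of counts over library totals, without the TMM factors used for the other members. The edgeR fold was 101600 for Akr1c18 and 120900 for Sfrp4 in F1 controls, and 11570 and 24360 in F2 controls.

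Across the 9 testis groups 4615 of 19467 genes passed (23.7%), and 2 of the 4 testable members did. Hsd17b7 passed (adjusted p = 0.017) with levels of 5.24 to 11.1 CPM, and Abcb1b passed (adjusted p = 0.042) with 0.098 to 1.08 CPM and 4 to 44 counts per library. The Abcb1b call was lost when any 1 of 13 libraries was left out (adjusted p up to 0.102). Prlr had an adjusted p of 0.0713, but 0.0125 by DESeq2 and 0.0177 without F1 dose 1 A, and Parm1 had one of 0.316. The range of Hsd17b7 over all testis libraries was thus far smaller than its range within the ovary group with a dose 1 father, 220.4 to 2145 CPM.

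**Figure D5:**
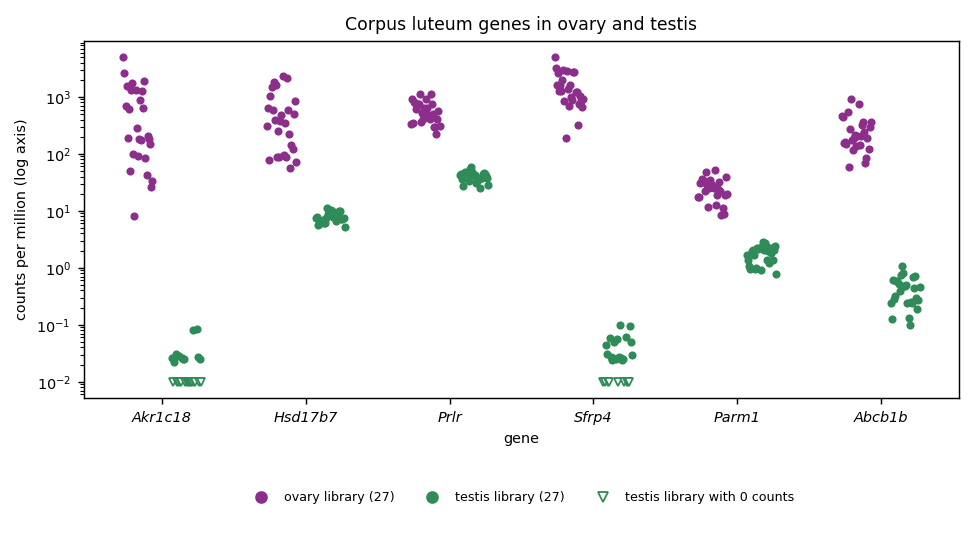
Level of each gene in every ovary library (purple) and testis library (green), in CPM on a log axis; open triangles at the foot stand for testis libraries with 0 counts. Ovary and testis do not overlap for any of the 6 genes, and Akr1c18 and Sfrp4 are at or near 0 in testis.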

How the data were processed

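Messenger RNA of ovary and testis was sequenced in 54 libraries. Reads of 100 nt came from stranded ligation libraries of TRIZOL-extracted RNA, per the labels' protocols. The submitters' processing notes name build mm39, TopHat2 2.1.1 and Bowtie2 2.4.5, and featureCounts 2.0.3, SAMtools 1.13 and DESeq2 1.32.0. Neither the annotation nor the strand setting is given in the sources used here, and reads of overlapping genes cannot be assigned to a strand. Raw counts per gene were deposited by the authors, as whole numbers for 26264 entries per tissue, of which 133 have no gene ID and were kept.

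Here the counts were tested in R 4.3.3 with edgeR 4.0.16 (quasi-likelihood test, robust, TMM factors, filterByExpr with a minimum count of 10), with Benjamini-Hochberg adjustment over all genes and a threshold of 0.05. The 9 F1 ovary libraries shared a fit, the 18 F2 ovary libraries another, and other comparisons used all libraries of the tissues concerned. Akr1c18 and Sfrp4 did not pass the filter in testis alone. Log2 CPM used a prior count of 2. Correlations used 100000 resamples, or exact enumeration for 9 libraries. No replicate libraries agreed within sampling noise. Same-letter libraries deviated together in F1 dose 1 against control (correlations 0.176, 0.194 and 0.336, all above 0.1), so these letters were taken as pairs, though the labels do not say what a letter shares. As alternatives, each library was left out in turn, the letter was used as a block, other libraries entered the fit, low counts were not filtered, RLE size factors replaced TMM and DESeq2 1.42.0 replaced edgeR. Leaving out the 2 deepest ovary libraries was added after the data were seen.

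The members were fixed by name. They and the gene lists were chosen with earlier results of these data known. Up to 4 genes of a list were named by the smallest p across the 9 ovary groups, relatives were named by level, and the 3 most similar genes per member by Pearson's r. Genes named for their correlation with a member were chosen after their values were seen. Steps were tested on simulated counts.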

Additional observations from a re-analysis of the deposited data

Results flagged for a closer look

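For 7 pairings of a gene with a comparison, all 3 ovary libraries lay above the mean of the ovary controls while all 3 testis libraries lay below the mean of the testis controls. The values are differences of mean log2 CPM, and none of these differences between the tissues was tested. In all 32 pairings were examined, of 4 genes in 8 comparisons. Opposite moves in either direction occurred in 12.8% of pairings over the 16391 genes tested in both tissues. The ovary and testis samples come from females and males of the same group labels.

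Hsd17b7, the oestradiol-making enzyme, did this at both F1 doses. At dose 1 its mean was 1.94 above control in ovary and -0.12 in testis, a difference of 2.05, and at dose 2 it was 2.06 and -0.11, a difference of 2.17. Most of each difference was in ovary, where the 3 libraries lay 1.21 to 2.57 above the control mean at dose 1 and 0.65 to 2.86 at dose 2, while no testis library was more than 0.22 below it.

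Among the F2 crosses the full pattern occurred with dose 1 parents. For Prlr and Abcb1b, however, its testis part held in every cross with an exposed parent, dose 2 included. In testis, Prlr was at 54.61, 57.74 and 47.46 CPM with control parents and at most 45.74 CPM in any other F2 library. Testis Abcb1b was at 0.7376, 1.083 and 0.8053 CPM with control parents and at most 0.7147 CPM in the others. With a dose 1 mother, Prlr, the prolactin receptor, was at 0.66 in ovary and -0.32 in testis, a difference of 0.97. A dose 1 father gave 4 of the 7 pairings, and 13.7% of all genes had opposite moves there. Hsd17b7 was at 2.402 in ovary and -0.28 in testis (difference 2.68), and Prlr was at 0.82 and -0.70 (difference 1.51). Parm1 was at 0.27 and -0.54 (difference 0.81), and Abcb1b at 0.98 and -1.20 (difference 2.17). Abcb1b had 4 to 44 counts per testis library, so counting error weighs on its testis values.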

How the results depend on the processing

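Of 302 recomputed log2 fold changes of members (26 values under their alternatives), 301 kept their direction and their side of the threshold. These included the large ovary against testis values of all 6 members in the controls of both generations. Only some of the uncalled values between ovary groups were followed. Prlr in the difference of the dose 2 effects was not among them, and it passed without F1 control B. Among the values followed, the exception was Akr1c18 with both parents at dose 2. It ranged from -3.98 to 0.40 when 1 library was left out and turned positive without control parents C. With the letter of a library as a replicate block, a pairing that the labels do not explain, no member's call changed. The block gave 2 genes for F1 dose 2, 1 for dose 2 against dose 1, 15 for the difference between the dose 2 effects of the generations and 526 across the 9 ovary groups.

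DESeq2 called 72 genes for F1 dose 1, 345 for dose 2 and 342 between the doses. In F2 it called 122 (dose 1 mother), 13 (dose 2 mother), 82 (dose 1 father), 351 (dose 2 father) and 1792 (both parents). It called 119 between the controls and 3122 for the difference of dose 2 effects. Across the ovary groups it called 3325 (4 of them members, beside 800 genes and no member with edgeR), and across the testis groups 7445. With all 27 ovary libraries in 1 fit, 350 genes passed for F1 dose 2, 306 between the doses, 2 for a dose 1 mother and 0 for a dose 2 father or both parents at dose 2. The count for both parents was also 0 with only the 6 libraries compared, and 47 without the low-count filter, which left 25 for the difference of dose 2 effects. Without the 2 deepest ovary libraries, an alternative chosen after seeing the data, F1 dose 2 gave 335, the doses 283 and the difference of dose 2 effects 763. Subtracting group means left 3 of 5 correlated pairs.

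Leaving out 1 library at a time moved the genes called over 0 to 368 for F1 dose 2, 0 to 448 between the doses, 0 to 68 for a dose 1 mother, 0 to 1 for a dose 2 mother and for a dose 1 father, and 0 to 108 for a dose 2 father. It moved them over 0 to 1443 for both parents, 0 to 16 between the controls, 1 to 4158 for the difference of dose 2 effects (members 0 to 1), 380 to 3067 across the ovary groups (members 0 to 1) and 2766 to 7137 across the testis groups (members 1 to 3). The largest F1 dose 2 counts came without dose 2 C, and the largest count for both parents without its library B. For all of these the cause was not tested. With 3 libraries per group and the spread of Akr1c18 and Hsd17b7 within groups, differences of several-fold did not pass the test in ovary. In testis the low counts of Akr1c18, Sfrp4 and Abcb1b limit what can be seen.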

Other observations

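The F2 control parents library B was the lowest of the 27 ovary libraries for both Akr1c18 (8.11 CPM) and Sfrp4 (193.5 CPM). The 3 ovary libraries with the highest summed level of ovulatory and cumulus markers differed in Hsd17b7. F1 control C had 377.2 CPM of these markers and 79.2 CPM of Hsd17b7, F2 control parents C had 522.7 and 86.38 CPM, and F1 dose 1 C had 354.5 and 579.3 CPM. The part of these markers in the Hsd17b7 level was not tested.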
